A study of Homo sapiens with 23 samples.

Results

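Libraries labelled as c-JUN knockout thalamus organoids (ThOs) with c-JUN introduced again were compared with libraries labelled as the knockout alone at day 30 of culture. The comparison uses 4 RNA-seq libraries, 2 titled as the H1 knockout plus c-JUN at day 30 and 2 titled as the H1 knockout at day 30, of the 12 RNA-seq libraries among the 23 samples of the series. All 9497 genes listed in every table were examined. H1 is an established human embryonic stem cell line. The group labelled WT came from unedited H1 cells, the group labelled KO from H1 cells edited at JUN with CRISPR/Cas9, and the group labelled OE from knockout cells that carried c-JUN under a tetracycline-inducible promoter switched on with doxycycline. All groups were taken through the same neural induction and thalamus patterning, and the labels give 3 pooled organoids for an RNA-seq sample. The study worked with more than a single knockout clone, and which clone gave which library, and whether the KO organoids received doxycycline, is not given in the sources used here. WT, KO and OE libraries of day 25 and WT libraries of day 30, 2 of each, entered the model for its spread. ATAC-seq and CUT&Tag samples, 11 in all, were not analysed here.

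c-JUN is a basic leucine zipper protein. It binds DNA as a dimer with FOS, ATF or other JUN proteins, and the dimer, named AP-1, recognizes short palindromes in enhancers and promoters. In the developing brain c-JUN is known from neuronal migration, axon growth and programmed cell death, and it is the transcription factor that JNK kinases phosphorylate. The thalamus arises from the dorsal diencephalon, next to the roof plate, a midline tissue that secretes WNT and BMP proteins and borders the choroid plexus.

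The value of a gene in a library is a normalized expression value, rounded to a whole number by the authors, with a minimum of 11, a median of 106 and a maximum of 9910 in each of the 12 libraries. The read depth is unknown, so each difference was set against how far replicate libraries lay apart. Nothing in the labels says that the 2 libraries of a group came from separate cultures, so the spread behind the p-values may be technical. The main model gave each gene a single spread, pooled over the 6 groups and taken as equal in all of them. Replicates did not spread equally. At day 30 the standard deviation of their log2 differences was 0.835 in KO, 0.412 in OE and 0.361 in WT. The p-values may therefore understate the noise of the KO libraries. Library KO replicate 2 of day 30 stood apart from the others. Its median Spearman's rho to the other 11 libraries was 0.745, where the other libraries had 0.830 to 0.934. The 2 KO libraries of day 30 were at least 2-fold apart in 21.5% of genes, and the 2 OE libraries in 3.23%. Against KO replicate 1, 2.55% of genes were at least 2-fold apart in OE replicate 1 and 4.21% in OE replicate 2. Against KO replicate 2 the shares were 24.1% and 26.1%. Where leaving out this library moved a log2 fold change past the unadjusted threshold by more than 1.5 times, the value without it is given as well.

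**Figure D1:**
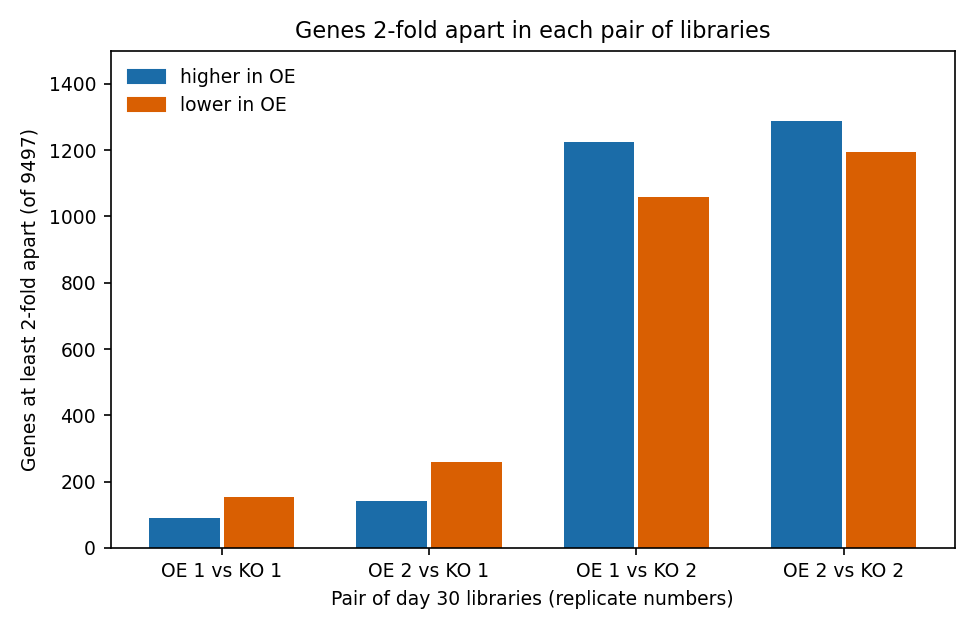
Number of genes, of 9497, that were at least 2-fold higher (blue) or lower (orange) in an OE library than in a KO library, for each of the 4 pairs of day 30 libraries. The pairs with KO replicate 1 have 89 to 259 genes in a direction and the pairs with KO replicate 2 have 1060 to 1287.

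The transcript of JUN did not separate the libraries labelled OE from those labelled KO. JUN (ENSG00000177606, GRCh38 chr1:58776845-58784048) had values of 222 and 248 in the KO libraries and 362 and 202 in the OE libraries of day 30. OE replicate 1 held the highest value and OE replicate 2 the lowest, so the groups overlapped. The log2 fold change of OE over KO was 0.20 (SE 0.323, adjusted p = 0.809, limma), and the exact two-sided permutation test of 2 against 2 gave p = 1, where the smallest possible p is 0.333. Without OE replicate 1 the difference turned to -0.22. WT libraries had 128 and 162, below every KO and OE library, so the transcript was not lower in the libraries labelled KO. Protein was not measured in these libraries, so the transcript alone does not show whether the knockout held. For its knockout lines the paper reports c-JUN protein as absent by western blot. It also reports no c-JUN mRNA by RT-qPCR during neural induction. The values here, from another assay, culture and stage, do show transcript in KO. With doxycycline the paper reports c-JUN protein as overexpressed in knockout lines by western blot. In ThOs of day 25 it reports the c-JUN gene as less accessible by ATAC-seq in KO than in WT and OE. Since the tables hold no sequence, transcript of the edited gene and of the introduced c-JUN cannot be told apart in OE. The names KO and OE below stand for the labels alone.

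Of 17 AP-1 subunits looked for, 5 were listed, and FOS, FOSB, FOSL1, FOSL2 and JUNB were not among them. JUND, the other listed JUN protein, had values of 284 and 295 in KO and 249 and 284 in OE. ATF3, a stress-induced partner of c-JUN, had 68 and 26 in KO and 36 and 24 in OE, where a single KO library set the difference. The large MAF protein MAF had 130 and 112 in KO and 186 and 204 in OE, a log2 fold change of 0.69 with an unadjusted p of 0.0333 and an adjusted p of 0.437 (limma). None of the 5 was at least 2-fold apart. Of 28 listed genes of the JNK cascade and of ATF and CREB factors, 0 were higher and 2 lower at an unadjusted p under 0.05 and 2-fold, where 2.71% of all genes were higher and 2.67% lower, with a median of -0.08. ATF1, a CREB relative, had 50 and 110 in KO and 26 and 28 in OE (log2 fold change -1.43, and -0.87 without KO replicate 2), and DUSP4, a phosphatase of MAP kinases, had 163 and 580 in KO and 86 and 159 in OE (log2 fold change -1.39, and -0.48 without KO replicate 2). In DUSP4, KO replicate 1 and OE replicate 2 were almost equal.

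With all 12 libraries in the model, few genes changed between the libraries labelled OE and KO, and those called fell. Requiring 2-fold and an adjusted p under 0.05 from limma called 8 of 9497 genes (0.0842%), 0 higher and 8 lower in OE. They encode a retinol dehydrogenase, a claudin, an immunoglobulin adhesion molecule, a protein kinase C, a C-mannosyltransferase, a cerebellin, an endoplasmic-reticulum phagy receptor and a synaptotagmin. The looser threshold used below, 2-fold with an unadjusted p under 0.05, was passed by 511 genes (5.38%), of which 257 (2.71%) were higher and 254 (2.67%) lower.

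RDH10, which oxidizes retinol to retinal in the synthesis of retinoic acid, had the largest fall of the 8. RDH10 (ENSG00000121039, chr8:73294602-73325281) had values of 298 and 488 in KO and 52 and 24 in OE, a 10.5-fold lower level in OE (log2 fold change -3.39, SE 0.452, adjusted p = 0.0325). CLDN1 (ENSG00000163347, chr3:190305707-190322446), a claudin of epithelial tight junctions, had 372 and 438 in KO and 82 and 22 in OE, 9.26-fold lower (log2 fold change -3.21, SE 0.496, adjusted p = 0.0479). The gene overlaps CLDN16 in the annotation. For both genes the OE libraries differed from each other by more than 2-fold, yet both lay far below either KO library.

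ALCAM and DPY19L1 had the smallest adjusted p. ALCAM (ENSG00000170017, chr3:105366909-105576900), a cell adhesion molecule of growing axons, had 428 and 491 in KO and 75 and 74 in OE, 6.09-fold lower (log2 fold change -2.61, SE 0.259, adjusted p = 0.00524). DPY19L1 (ENSG00000173852, chr7:34927292-35038271), a C-mannosyltransferase of the endoplasmic reticulum, had 619 and 524 in KO and 150 and 94 in OE, 4.76-fold lower (log2 fold change -2.25, SE 0.260, adjusted p = 0.0120). These were also the 2 of the 8 genes that stayed called without KO replicate 2, with adjusted p of 0.0364 and 0.0442. PRKCB (ENSG00000166501, chr16:23835983-24220611), the calcium-dependent protein kinase C beta, had 231 and 246 in KO and 55 and 42 in OE, 4.88-fold lower (log2 fold change -2.29, SE 0.316, adjusted p = 0.0344).

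The remaining called genes concern secretion and the endoplasmic reticulum. CBLN1 (ENSG00000102924, chr16:49277917-49281838), a secreted organizer of synapses, had 710 and 522 in KO and 141 and 140 in OE, 4.31-fold lower (log2 fold change -2.11, SE 0.316, adjusted p = 0.0475). SYT4 (ENSG00000132872, chr18:43267892-43277535), a synaptotagmin of secretory vesicles, had 1412 and 1326 in KO and 532 and 525 in OE, 2.59-fold lower (log2 fold change -1.37, SE 0.208, adjusted p = 0.0475). Within each group the 2 libraries of SYT4 were almost equal. CCPG1 (ENSG00000260916, chr15:55340032-55408510), a receptor for autophagy of the endoplasmic reticulum, had 178 and 258 in KO and 61 and 58 in OE, 3.56-fold lower (log2 fold change -1.83, SE 0.259, adjusted p = 0.0344). CCPG1 overlaps the readthrough gene DNAAF4-CCPG1 and the genes PIGB and PIERCE2, and how reads were divided among them is not given in the sources used here.

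The number of calls depended on which libraries entered the fit. With 1 library left out, limma called 1441 genes without KO replicate 1 (893 higher and 548 lower), 3 without KO replicate 2, 4 without OE replicate 1 and 0 without OE replicate 2, where 269 genes passed the unadjusted threshold. Fitted on the 4 compared libraries alone, the model called 0 genes, and the unadjusted threshold was met by 270. A fit of all 12 libraries with library weights called ALCAM alone. Its weights were 0.321 in the KO and 1.70 in the OE libraries of day 30. All 8 genes had a negative log2 fold change without KO replicate 2, between -3.09 and -1.42.

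The WT libraries of day 30 gave these falls a reference point. In 5 of the 8 genes, both WT values lay between the KO and the OE libraries without overlap. The same held for 33 of the 60 genes at least 2-fold lower in every pair of libraries, and for 9 of the 16 higher. The share over all genes was not counted, and a wide gap between KO and OE leaves room for WT. ALCAM was at 176 and 186 in WT, PRKCB at 98 and 101, CLDN1 at 168 and 146, RDH10 at 144 and 76, and CCPG1 at 118 and 101. DPY19L1, at 176 and 143 in WT, overlapped the OE libraries. CBLN1, at 924 and 748, and SYT4, at 2400 and 2094, were higher in WT than in either other group.

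**Figure D2:**
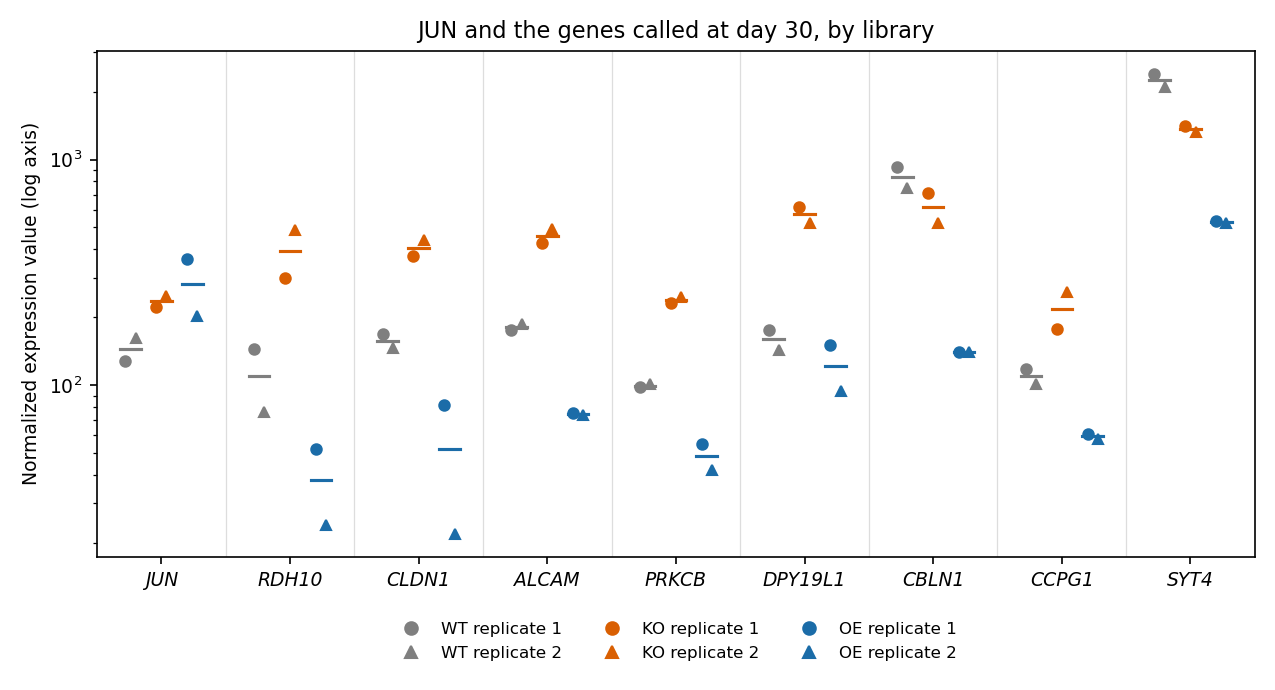
Normalized expression values (log axis) of JUN and of the 8 called genes in the 2 WT, 2 KO and 2 OE libraries of day 30, where circles are replicate 1, triangles replicate 2 and short lines group means. For JUN the OE libraries, at 362 and 202, lie on either side of the KO libraries, while for each called gene both OE libraries lie below both KO libraries. Of all genes, 18.5% have both OE libraries below both KO libraries.

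Because AP-1 binds known palindromes, the promoters of these genes were read. The RefSeq table for GRCh38.p14 held a promoter on the same chromosome and strand for 7816 of the 9497 genes, and the 250 bases before the annotated start were searched on both strands for TGANTCA, the AP-1 site, and for TGACGTCA, the site of ATF and CREB dimers. Neither motif contains the other. TGANTCA was found in 259 promoters (3.31%) and TGACGTCA in 253 (3.24%). Of the called genes, 6 had a promoter in the table, and none of the 6 held either motif. Among genes lower at the unadjusted threshold, 8 of 199 promoters (4.02%) held TGANTCA and 3 (1.51%) TGACGTCA, and among those higher, 5 of 221 (2.26%) and 6 (2.71%). These shares lie near those of all promoters. A match here is a description of these 250 bases, and enhancers and first introns were not searched.

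Promoters of 4 genes are shown 5′ to 3′, each ending at the base before the start, with a motif in capitals where there is a match. ALCAM (chr3:105366659-105366908, plus strand) and CLDN1 (chr3:190322447-190322696, minus strand) are shown as called genes without a match. EMILIN2 (chr18:2846756-2847005, plus strand) is shown because its AP-1 site lies 217 bases before the start, and CHPF (chr2:219543810-219544059, minus strand) because it holds 2 copies of TGACGTCA, 222 and 177 bases before the start. EMILIN2, a matrix glycoprotein, and CHPF, a chondroitin polymerizing factor, were lower in OE at the unadjusted threshold, with log2 fold changes of -2.49 and -1.66. CHPF was chosen after its values were seen.
ALCAM: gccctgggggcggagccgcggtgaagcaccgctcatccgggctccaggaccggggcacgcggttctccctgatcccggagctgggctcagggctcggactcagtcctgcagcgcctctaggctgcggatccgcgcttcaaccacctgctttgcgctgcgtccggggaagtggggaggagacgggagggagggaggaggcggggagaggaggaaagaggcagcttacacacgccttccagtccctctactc
CLDN1: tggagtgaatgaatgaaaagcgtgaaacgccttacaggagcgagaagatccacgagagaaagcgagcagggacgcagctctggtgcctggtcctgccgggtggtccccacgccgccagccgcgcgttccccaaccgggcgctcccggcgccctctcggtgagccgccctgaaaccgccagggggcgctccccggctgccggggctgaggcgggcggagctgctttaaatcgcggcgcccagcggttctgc
EMILIN2: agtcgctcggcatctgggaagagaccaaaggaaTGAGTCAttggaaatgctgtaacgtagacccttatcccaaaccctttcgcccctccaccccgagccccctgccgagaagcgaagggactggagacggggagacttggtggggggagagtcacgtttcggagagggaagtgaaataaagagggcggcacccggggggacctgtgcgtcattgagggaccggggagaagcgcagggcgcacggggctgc
CHPF: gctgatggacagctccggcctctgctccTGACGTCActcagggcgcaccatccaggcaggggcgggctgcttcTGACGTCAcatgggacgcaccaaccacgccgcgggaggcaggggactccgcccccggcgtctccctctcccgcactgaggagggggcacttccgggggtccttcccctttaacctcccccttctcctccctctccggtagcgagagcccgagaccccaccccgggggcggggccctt

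Genes just short of the adjusted threshold included the largest increases. HES6, a helix-loop-helix factor that favors neuronal differentiation, had 90 and 42 in KO and 234 and 324 in OE (log2 fold change 2.14, SE 0.337, adjusted p = 0.0501). SLIT1, a secreted axon repellent, had 86 and 36 in KO and 374 and 355 in OE, 6.44-fold higher (log2 fold change 2.69, SE 0.443, adjusted p = 0.0592). FGFR3, an FGF receptor of ventricular zone progenitors, had 98 and 54 in KO and 356 and 241 in OE (log2 fold change 1.99, SE 0.340, adjusted p = 0.0597). In all 3 genes both OE libraries were above both KO libraries by more than 2-fold, and without KO replicate 2 the log2 fold changes were 1.60, 2.07 and 1.57.

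The Eph receptor EPHA3 had 325 and 114 in KO and 1608 and 678 in OE (log2 fold change 2.43, adjusted p = 0.0886). The immunoglobulin superfamily gene IGDCC3 had 88 and 36 in KO and 258 and 222 in OE, and the zinc finger gene ZNF503 had 113 and 34 in KO and 227 and 258 in OE (log2 fold change 1.94, and 1.09 without KO replicate 2). The remaining genes among the 12 largest increases were H4C14, H2BC17, ELAVL3, H2AC17, RASSF2 and RASA4. In each of these, KO replicate 1 lay much nearer to the OE libraries than KO replicate 2, which lay far below. ELAVL3, for example, had 245 and 25 in KO and 278 and 380 in OE, and its log2 fold change of 2.03 became 0.41 without KO replicate 2. H4C14, H2BC17, H2AC17, RASSF2 and RASA4 went from between 1.89 and 2.22 to between 0.41 and 0.85.

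On the lower side, ONECUT3, a homeobox factor of newborn neurons, had 81 and 222 in KO and 24 and 16 in OE (log2 fold change -2.71, adjusted p = 0.0597). TPBG, a leucine-rich membrane glycoprotein that inhibits WNT signaling, had 1411 and 1603 in KO and 676 and 650 in OE (log2 fold change -1.18, adjusted p = 0.0509). TPBG was chosen after its values were seen, as a gene just outside the threshold. ANO2, a calcium-activated chloride channel, stood among the 12 largest decreases through KO replicate 2 alone, with 25 and 231 in KO and 11 and 14 in OE, and its log2 fold change of -2.53 became -0.95 without it.

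How far the 511 genes of the unadjusted threshold rested on KO replicate 2 was counted directly. Of the 257 higher in OE, 252 (98.1%) had KO replicate 2 farther from the OE libraries than KO replicate 1, and 17 still passed without it. Their median log2 fold change was 1.22 with all libraries and 0.47 without KO replicate 2. Of the 254 lower in OE, 216 (85.0%) had KO replicate 2 farther from OE, and 85 still passed without it, with medians of -1.28 and -0.92. Without KO replicate 2, 141 genes of the whole table passed, 34 higher and 107 lower, and without KO replicate 1, 2101 passed. A count that does not lean on a single library, added after the values were seen, asks that every OE library be at least 2-fold from every KO library: 16 genes (0.168%) were higher by this count and 60 (0.632%) lower.

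Several genes of the WNT pathway and of the roof plate were lower in OE, though none was called. WNT proteins are lipid-modified ligands, FZD and ROR proteins are their receptors, and R-spondins bind LGR receptors to stabilize FZD at the membrane. Of 53 listed WNT pathway genes, 0 were called. At the unadjusted threshold 1 was higher (1.89%) and 9 lower (17%), beside 2.71% and 2.67% of all genes. With all libraries the median was -0.12, beside -0.01 over all genes, of which 49.0% were above 0 and 50.9% below. The median of the list was -0.14 without KO replicate 2 and 0.03 without OE replicate 2.

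Among the ligands, WNT1, which patterns the dorsal midline, had 139 and 262 in KO and 43 and 18 in OE (log2 fold change -2.73, SE 0.553, adjusted p = 0.117). WNT2B had 592 and 1466 in KO and 204 and 318 in OE, and its log2 fold change of -1.87 became -1.21 without KO replicate 2. WNT8B, a ligand of the diencephalic and hippocampal midline, went the other way, with 27 and 20 in KO and 66 and 78 in OE (log2 fold change 1.59, adjusted p = 0.320). WT libraries had 38 and 36 for WNT1 and 44 and 65 for WNT8B, within the OE libraries for WNT1 and between the groups for WNT8B.

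On the receptor side, LGR4 had 373 and 368 in KO and 152 and 61 in OE (log2 fold change -1.93, adjusted p = 0.190, and -1.28 without OE replicate 2). Its ligand RSPO3 had 362 and 532 in KO and 176 and 140 in OE (log2 fold change -1.48, adjusted p = 0.261). APCDD1, a membrane inhibitor and target of WNT signaling, had 1602 in each KO library and 440 and 342 in OE, 4.12-fold lower (log2 fold change -2.04, SE 0.382, adjusted p = 0.0886). APCDD1, WNT1, LGR4 and RSPO3 were lower in OE without overlap of the libraries, as were 18.5% of all genes. All 4 kept log2 fold changes between -2.28 and -1.20 without KO replicate 2.

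The roof plate list shares WNT1, RSPO3 and WNT8B with the WNT list. Of its 16 listed genes, 1 was higher (6.25%) and 5 lower (31.2%) at the unadjusted threshold, beside 2.71% and 2.67% of all genes. The median of the list was -0.63, and -0.38 without KO replicate 2. LMX1B, a LIM homeobox factor of the dorsal midline, had 375 and 368 in KO and 182 and 65 in OE (log2 fold change -1.76, adjusted p = 0.382). Its relative LMX1A had 285 and 538 in KO and 209 and 166 in OE, and its log2 fold change of -1.07 became -0.61 without KO replicate 2. Without OE replicate 2 that of LMX1B became -1.03. ZIC1, a zinc finger factor of dorsal neural tissue, had 9910 and 1882 in KO and 1743 and 1412 in OE, where KO replicate 1 sits on the highest value of the scale. Its log2 fold change of -1.46 became -0.26 without KO replicate 1 and -2.66 without KO replicate 2. BMP ligands and targets of the roof plate overlapped: GDF7 had 306 and 390 in KO and 420 and 128 in OE, and MSX1 had 310 and 528 in KO and 438 and 140 in OE. In both genes the OE libraries lay more than 3-fold apart, and without OE replicate 2 the median of the list was -0.08.

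**Figure D3:**
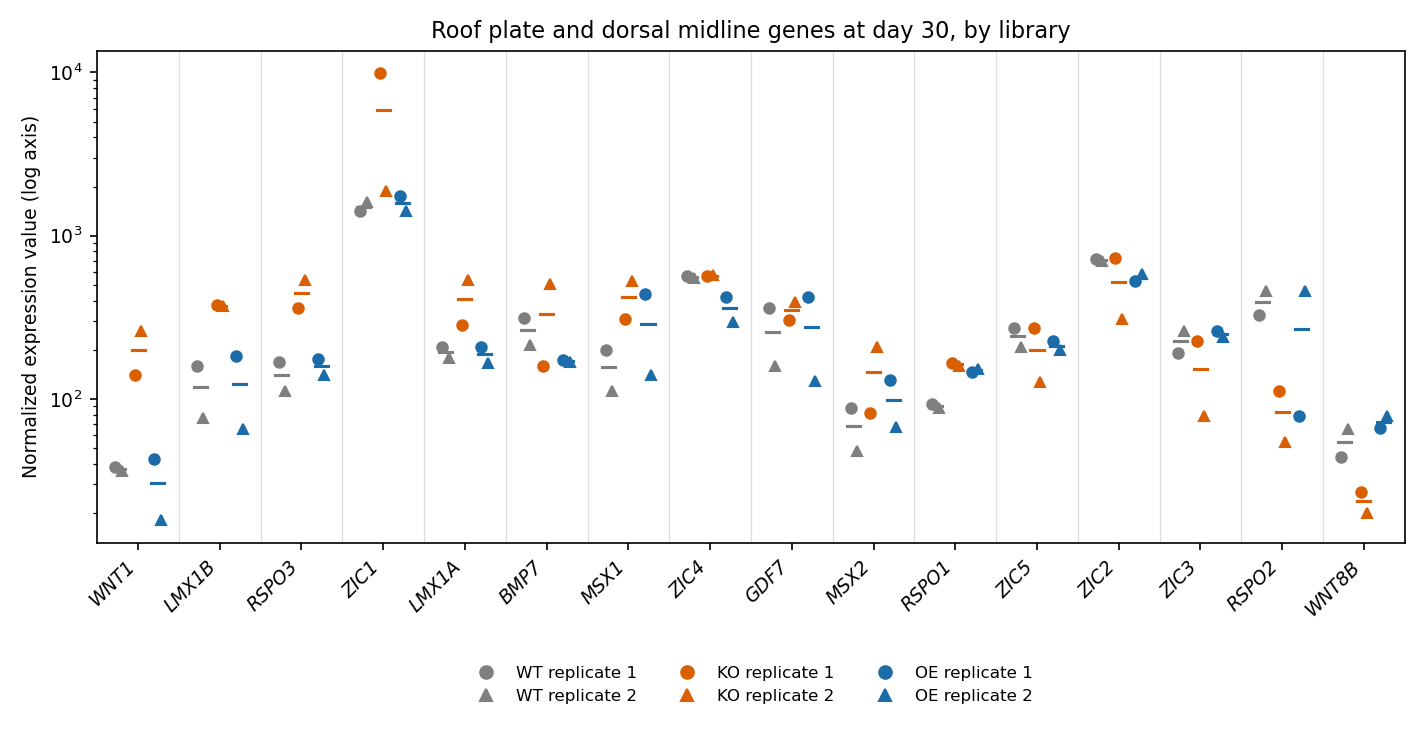
Normalized expression values (log axis) of the 16 listed roof plate and dorsal midline genes in the 2 WT, 2 KO and 2 OE libraries of day 30, ordered by log2 fold change of OE over KO, where circles are replicate 1, triangles replicate 2 and short lines group means. WNT1, LMX1B, RSPO3, ZIC1 and LMX1A have both OE libraries below both KO libraries and WNT8B has both above, while MSX1, MSX2, GDF7, BMP7 and RSPO2 overlap. Of all genes, 18.5% have both OE libraries below and 18.7% have both above.

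Extracellular matrix genes were lower more evenly. Of 47 listed matrix genes, 0 were higher and 12 (25.5%) lower at the unadjusted threshold, where 2.67% of all genes were lower. A log2 fold change below 0 was found in 38 (80.9%), and in 50.9% of all genes. The median was -0.48, -0.46 without KO replicate 2 and -0.23 without OE replicate 2, so OE replicate 2 mattered more to it than KO replicate 2. In every pair of libraries, 5 of its members were at least 2-fold lower, as were 60 of all 9497 genes (0.632%).

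The chains of collagen IX, COL9A1 and COL9A2, were both lower. COL9A2 had 357 and 592 in KO and 101 and 81 in OE, 5.04-fold lower (log2 fold change -2.33, SE 0.408, adjusted p = 0.0681), and COL9A1 had 156 and 87 in KO and 36 and 22 in OE. EMILIN2 had 78 and 123 in KO and 25 and 11 in OE, and MATN2, a matrilin, 100 and 127 in KO and 37 and 17 in OE. Of the basement membrane laminins, 2 examples had 260 and 340 in KO and 140 and 99 in OE for LAMA1 and 332 and 320 in KO and 211 and 159 in OE for LAMB2, where LAMB2, with a log2 fold change of -0.83, did not reach 2-fold. The neural proteoglycan NCAN was the member with an unadjusted p under 0.05 in the other direction, at 132 and 126 in KO and 206 and 228 in OE (log2 fold change 0.74). MXRA5 had 62 and 52 in KO and 24 and 20 in OE (log2 fold change -1.33, adjusted p = 0.324), while WT stood at 211 and 180, so OE lay farther from WT than KO did.

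Cell adhesion genes differed in both directions, though the increases of CADM4, CNTN2 and PCDH18 were below 2-fold without KO replicate 2. Immunoglobulin adhesion molecules, which tie axons to one another, had 3 of 33 members higher (9.09%) and 6 lower (18.2%), including ALCAM. Of all genes, 2.71% were higher and 2.67% lower. The median of the list was -0.15, and -0.09 without KO replicate 2. CADM4 had 181 and 37 in KO and 234 and 308 in OE, and its log2 fold change of 1.70 became 0.57 without KO replicate 2. Contactins, anchored in the axon membrane, differed among themselves. CNTN4 had 136 and 112 in KO and 32 and 18 in OE (log2 fold change -2.31, adjusted p = 0.0811), CNTN1 had 336 and 532 in KO and 112 and 100 in OE (log2 fold change -1.99, adjusted p = 0.105), and CNTN3 had 46 and 106 in KO and 19 and 21 in OE (log2 fold change -1.76, and -1.16 without KO replicate 2). CNTN2, which the study stained on nerve fibers, had 1012 and 504 in KO and 1260 and 2092 in OE (log2 fold change 1.18, adjusted p = 0.444). Its log2 fold change was 0.68 without KO replicate 2.

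Among 44 cadherins and protocadherins, 1 was higher (2.27%) and 6 lower (13.6%) at the unadjusted threshold, beside 2.71% and 2.67% of all genes. Their median was -0.19, with and without KO replicate 2. CDH6 had 466 and 640 in KO and 207 and 80 in OE (log2 fold change -2.08, adjusted p = 0.157), and PCDH18 had 235 and 70 in KO and 506 and 332 in OE (log2 fold change 1.67, and 0.80 without KO replicate 2). Among 29 tight junction genes, 1 was higher (3.45%) and 3 lower (10.3%). CLDN5, a claudin of brain endothelium that the study also stained in organoids, had 68 and 51 in KO and 174 and 238 in OE (log2 fold change 1.77, adjusted p = 0.105), opposite to CLDN1. PTPRC was the other listed member of the endothelium and blood markers, of which 2 of 20 were listed, and its log2 fold change was below 0. Summed over these markers, the KO libraries had 118 and 265 and the OE libraries 239 and 270. TJP1, the scaffold protein ZO-1, had 310 and 257 in KO and 332 and 376 in OE (log2 fold change 0.32, adjusted p = 0.524).

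Axon guidance genes held large differences of both signs. Of 56 listed, 4 were higher (7.14%) and 6 lower (10.7%) at the unadjusted threshold, beside 2.71% and 2.67% of all genes. The median was -0.11. SLIT1 and EPHA3 were described above. EPHA7, a repulsive Eph receptor, had 2674 and 2672 in KO and 564 and 486 in OE, 5.10-fold lower (log2 fold change -2.35, SE 0.475, adjusted p = 0.117), and WT lay between at 1084 and 898. The netrin receptor UNC5B had 136 and 48 in KO and 281 and 202 in OE (log2 fold change 1.55, and 0.80 without KO replicate 2), and the semaphorin SEMA3B had 106 and 181 in KO and 72 and 26 in OE (log2 fold change -1.65, and -0.93 without OE replicate 2). NTNG2, a netrin-G, had 154 and 345 in KO and 76 and 80 in OE (log2 fold change -1.55, and -0.97 without KO replicate 2). The netrin receptor DCC, which the study examined, had 293 and 444 in KO and 406 and 564 in OE and overlapped (log2 fold change 0.41, adjusted p = 0.712). SEMA6A was nearly equal, at 314 and 318 in KO and 328 and 312 in OE.

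Genes of synaptic vesicles and secretory granules held 2 of the called genes. Of 37 listed, 31 (83.8%) had a log2 fold change below 0, where 50.9% of all genes had. At the unadjusted threshold 4 were lower (10.8%) and 0 higher, where 2.67% of all genes were lower and 2.71% higher. The median was -0.37, or -0.24 without KO replicate 2 and -0.14 without OE replicate 1. SYT4 and CBLN1 were called. SV2C, a vesicle glycoprotein, had 70 and 115 in KO and 18 and 24 in OE (log2 fold change -2.06, adjusted p = 0.197). VGF, the precursor of secreted neuropeptides, had 112 and 400 in KO and 58 and 67 in OE, and its log2 fold change of -1.75 became -0.84 without KO replicate 2. Of 62 ion channel and receptor genes, 0 were higher and 7 lower (11.3%), led by the potassium channels KCNJ2 and KCND2. KCNJ2 had 41 and 132 in KO and 14 and 22 in OE, and KCND2 had 102 and 156 in KO and 42 and 45 in OE. The log2 fold change of KCNJ2, -2.01, became -1.18 without KO replicate 2.

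General neuronal genes did not share this direction. Of 35 early neuron genes, 3 were higher (8.57%) and 2 lower (5.71%), beside 2.71% and 2.67% of all genes, with a median of 0.03. TUBB3, the neuronal tubulin detected by TUJ1 staining, had 1604 and 1608 in KO and 1410 and 1740 in OE (log2 fold change -0.04). GAP43, a growth cone protein, had 1332 and 1014 in KO and 734 and 808 in OE (log2 fold change -0.59, adjusted p = 0.398). NHLH1, a factor of newly born neurons, had 86 and 26 in KO and 136 and 168 in OE (log2 fold change 1.65, adjusted p = 0.388, and 0.81 without KO replicate 2).

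Cell cycle genes stood higher nearly throughout, most of them by less than 2-fold. Of 82 listed genes of the cell cycle and DNA replication, 77 (93.9%) had a log2 fold change above 0, where 49.0% of all genes had. At the unadjusted threshold 16 were higher (19.5%) and 0 lower, where 2.71% of all genes were higher and 2.67% lower. None was called. The median was 0.63, and 0.47 without KO replicate 2, where 2 genes still passed. BUB1B, a spindle checkpoint kinase, had 74 and 68 in KO and 164 and 150 in OE (log2 fold change 1.13, adjusted p = 0.284), more than 2-fold in every pair of libraries. KIF4A, a chromosome-bound kinesin, had 70 and 18 in KO and 127 and 102 in OE, and CENPE, a kinetochore motor, 126 and 42 in KO and 148 and 313 in OE. Their log2 fold changes of 1.64 and 1.55 became 0.69 and 0.77 without KO replicate 2. TOP2A, which untangles replicated DNA, had 731 and 616 in KO and 1008 and 1126 in OE (log2 fold change 0.67, adjusted p = 0.334). BUB1B and TOP2A differed little between the KO libraries, unlike KIF4A and CENPE. In these bulk libraries, more cycling cells and more RNA of these genes per cell cannot be told apart, and the same holds for every gene group here.

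Replicative histone genes, transcribed in S phase without a poly(A) tail and measurable here because total RNA was sequenced, had the highest median of the lists drawn, 1.22. Of 50 listed, 47 were above 0 and 28 (56.0%) were higher at the unadjusted threshold, where 2.71% of all genes were. Without KO replicate 2 the median was 0.49 and none passed. H4C14 had 214 and 31 in KO and 326 and 458 in OE, and H2BC17 had 278 and 38 in KO and 411 and 445 in OE. Summed over the list, the KO libraries had 13315 and 5909, the OE libraries 16194 and 21098 and the WT libraries 9773 and 11058. The order of these sums, OE above KO replicate 1 above WT above KO replicate 2, shows how far the 2 KO libraries disagree. The genes are near-identical copies, and how reads were shared among them is not given in the sources used here.

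Notch pathway genes had 5 of 28 members higher (17.9%) and 0 lower at the unadjusted threshold, with a median of 0.06. Of all genes, 2.71% were higher and 2.67% lower. HES6 led. JAG1, a Notch ligand, had 178 and 32 in KO and 312 and 222 in OE (log2 fold change 1.78), and HES4, a Notch target, had 78 and 14 in KO and 130 and 104 in OE (log2 fold change 1.77). Without KO replicate 2 these became 0.56 and 0.57, and HES6 was the single Notch gene that still passed. Of 20 radial glia genes, 4 were higher (20%) and 0 lower, and the median of 0.05 turned to -0.12 without KO replicate 2. Among those higher was SOX2, with 382 and 130 in KO and 531 and 465 in OE (log2 fold change 1.15, and 0.38 without KO replicate 2). NES, the NESTIN gene, had 1259 and 1130 in KO and 1330 and 1214 in OE (log2 fold change 0.09).

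Growth and metabolism genes followed the same pattern of small shifts that shrank without KO replicate 2. Cytosolic ribosomal protein genes had a median of 0.45 over 82 listed, with 6 higher (7.32%) and 0 lower, and 0.25 without KO replicate 2. Cholesterol synthesis genes had a median of 0.49 over 34, with 4 higher (11.8%) and 0 lower, and 0.21 without KO replicate 2. Of all genes, 2.71% were higher and 2.67% lower. HMGCS1, which makes the HMG-CoA used for cholesterol, had 3456 and 2670 in KO and 9910 in each OE library, the highest value on the scale, so its log2 fold change of 1.71 depends on where that scale ends. FDFT1, squalene synthase, had 650 and 291 in KO and 896 and 922 in OE (log2 fold change 1.06, adjusted p = 0.374, and 0.48 without KO replicate 2). Oxidative phosphorylation genes had a median of 0.25 over 74 and glycolysis and hypoxia genes 0.23 over 37, and the latter turned to -0.24 without KO replicate 2. SLC2A1, the glucose transporter GLUT1, had 804 and 168 in KO and 562 and 649 in OE (log2 fold change 0.71, and -0.41 without KO replicate 2).

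Stress and death genes passed the unadjusted threshold at shares near those of all genes, 2.71% higher and 2.67% lower. Of 41 listed apoptosis and p53 target genes, 1 was higher and 1 lower (2.44% each), with a median of 0.25, and of 44 heat-shock and endoplasmic reticulum folding genes, 0 were higher and 2 (4.55%) lower, with a median of -0.04. AEN, a nuclease induced by p53, had 41 and 36 in KO and 116 and 71 in OE (log2 fold change 1.22). XBP1, a factor of the unfolded protein response, had 322 and 342 in KO and 172 and 138 in OE (log2 fold change -1.10).

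**Figure D4:**
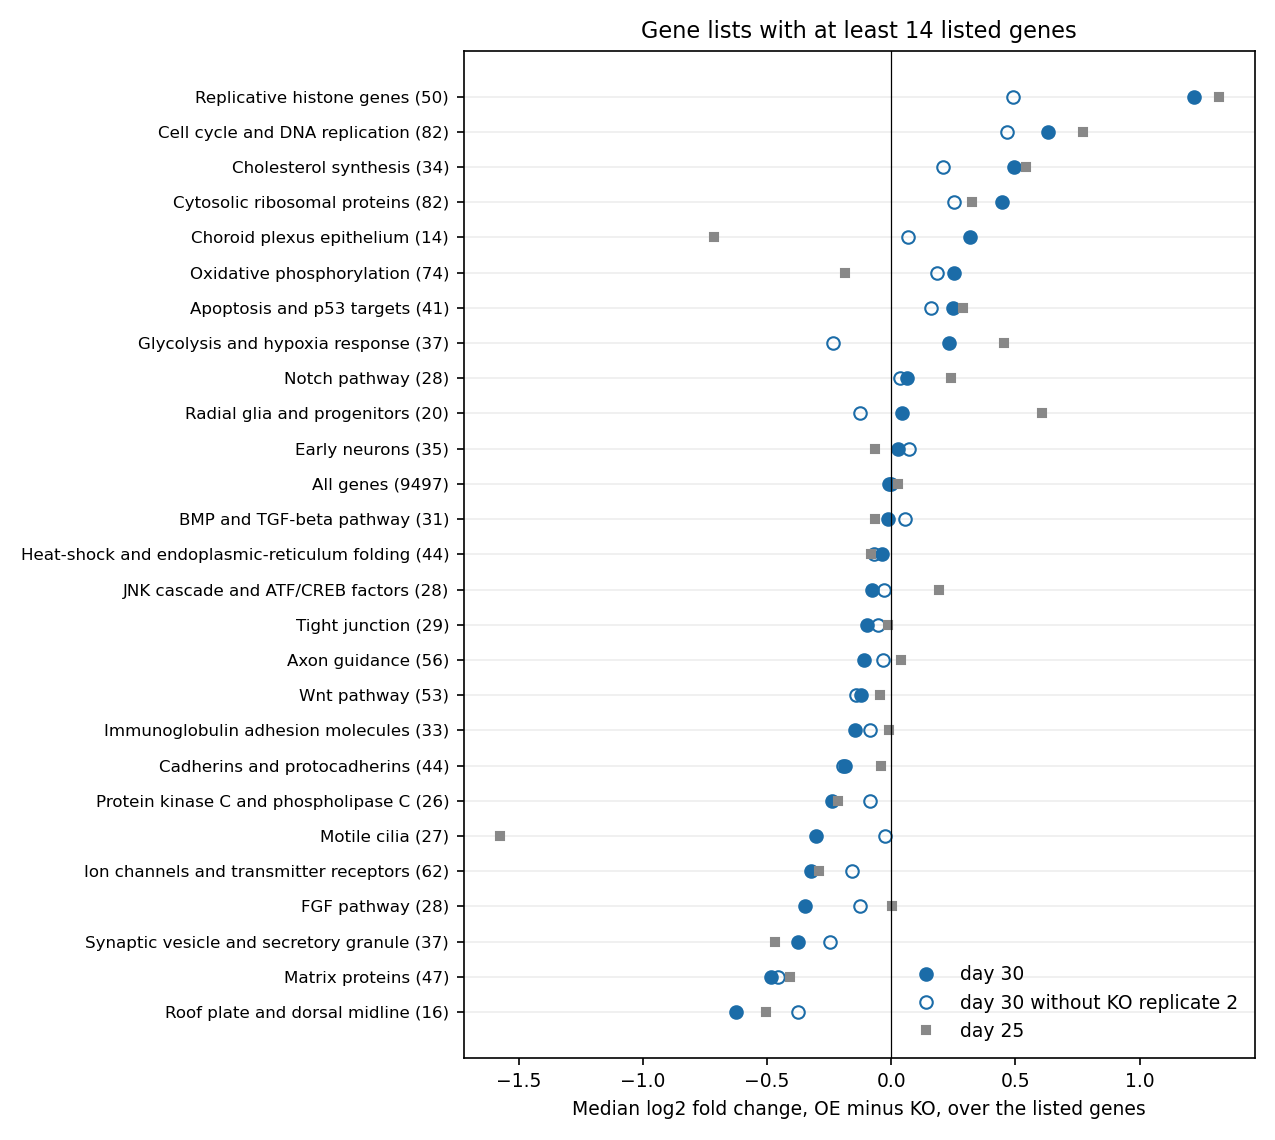
Median log2 fold change of OE over KO for each gene list with at least 14 listed genes, at day 30 (filled circles), at day 30 without KO replicate 2 (open circles) and at day 25 (grey squares), with the number of listed genes in parentheses. The histone list has medians of 1.22, 0.49 and 1.32, and the matrix list of -0.48, -0.46 and -0.41.

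Other signaling pathways had shares of lower genes above the 2.67% of all genes, from small numbers of members: 6.45% for BMP and TGF-beta, 7.14% for FGF, 22.2% for retinoid and 11.5% for protein kinase C and phospholipase C genes. Of 31 BMP and TGF-beta genes, 2 were lower, GDF10 with 38 and 78 in KO and 11 in each OE library, the lowest step of the scale, and the BMP antagonist NOG with 48 and 82 in KO and 26 and 24 in OE. Of 28 FGF pathway genes, FGFR3 was higher and 2 were lower, FGF12 with 80 and 150 in KO and 66 and 22 in OE and the heparan sulfate proteoglycan SDC2 with 288 and 394 in KO and 178 and 153 in OE. FGF12 went from a log2 fold change of -1.49 to -0.72 without OE replicate 2. Of 9 listed retinoid genes, RDH10 and CYP1B1 were lower. CYP1B1, a cytochrome that also oxidizes retinol, had 787 and 2394 in KO and 732 and 220 in OE (log2 fold change -1.77, adjusted p = 0.452), which became -0.97 without KO replicate 2 and -0.91 without OE replicate 2. Of 26 protein kinase C and phospholipase C genes, 3 were lower, PRKCB, DGKI and DGKD, where DGKI and DGKD are diacylglycerol kinases. DGKI had 58 and 293 in KO and 46 and 40 in OE, and its log2 fold change of -1.59 became -0.43 without KO replicate 2. DGKD went from -1.11 to -0.48.

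The identity of the organoids was checked against marker genes. Of 16 thalamic markers, 7 were listed, and GBX2, OLIG3, LHX2, NEUROG2 and FOXP2 were not. The lowest value listed is 11 and no mitochondrially encoded gene is listed, so why a gene is not listed is not known, and no level can be given for these. TCF7L2, the thalamic factor that the study stained, had 341 and 109 in KO and 272 and 444 in OE and overlapped (log2 fold change 0.85, adjusted p = 0.608, and 0.03 without KO replicate 2). LHX9 had 297 and 118 in KO and 220 and 462 in OE. None of the 7 passed the unadjusted threshold, and their median of 0.27 turned to -0.27 without KO replicate 2. Summed over the 7 genes the KO libraries had 1011 and 453, the OE libraries 760 and 1292 and the WT libraries 730 and 964. Of 16 telencephalic and 18 midbrain and hindbrain markers none was listed.

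Markers of other cell types were listed in part. Choroid plexus markers had 14 of 20 listed, with summed levels of 6757 and 4662 in KO, 7005 and 7009 in OE and 8354 and 5261 in WT. TTR, the main secreted protein of choroid plexus, had 2672 and 638 in KO and 2672 and 3452 in OE, and CLIC6 had 92 and 78 in KO and 198 and 160 in OE (log2 fold change 1.06, adjusted p = 0.566). HTR2C, the serotonin receptor of choroid plexus, had 101 and 78 in KO and 228 and 220 in OE (log2 fold change 1.33, unadjusted p = 0.0503) and is named after its values were seen. The sum of KO replicate 1 lay near those of OE, so the difference in the sums rested mainly on KO replicate 2. The median of the list was 0.32, 0.07 without KO replicate 2 and -0.13 without OE replicate 1. Within this list CLDN1 was called lower. Motile cilia genes had 0 higher and 1 lower (3.7%) of 27, beside 2.71% and 2.67% of all genes, with a median of -0.30. Their median was -0.03 without KO replicate 2, -0.91 without OE replicate 1 and 0.30 without OE replicate 2, so the OE libraries, with sums of 4907 and 2409, set its direction. Mesenchyme markers had 4 of 19 listed, with sums of 365 and 706 in KO, 436 and 248 in OE and 464 and 345 in WT. COL1A2 and PDGFRA were listed, while COL1A1, COL3A1, LUM and DCN were not. Their part in the difference of the matrix genes was not tested. Pluripotency markers had 3 of 15 listed, DNMT3B, LIN28B and TERF1, and neither POU5F1 nor NANOG.

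Day 25, whose libraries are separate, gave a second set of fold changes for the same comparison. Its p-values are not separate, since the same fit of 12 libraries gave each gene the same SE at both days (0.259 for ALCAM). A gene with a small SE is therefore more easily called at both days. Its KO libraries also disagreed, with 17.4% of genes at least 2-fold apart and a rho of 0.821. All 8 genes called at day 30 were lower in OE at day 25 and all 8 passed the unadjusted threshold there. Day 25 had 26 genes (0.274%) past the adjusted threshold, 12 (0.126%) higher and 14 (0.147%) lower, and 5 were called at both days, which is 62.5% of the day 30 calls and 19.2% of the day 25 calls. These 5 were ALCAM, CLDN1, DPY19L1, PRKCB and SYT4. All 26 genes called at day 25 had the same sign at day 30, and 12 of them passed the unadjusted threshold there. RDH10 had 257 and 152 in KO and 45 and 31 in OE at day 25, CBLN1 had 588 and 424 in KO and 186 and 122 in OE, and CCPG1 had 132 in each KO library and 61 and 65 in OE.

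Over the larger sets, 229 of the 257 genes higher at day 30 (89.1%) were also above 0 at day 25, where 52.4% of all genes were. Of the 254 lower genes, 221 (87.0%) were below 0 at day 25, where 47.6% of all genes were. The unadjusted threshold of day 25 was passed by 814 genes (8.57%), 404 (4.25%) higher and 410 (4.32%) lower. Of the genes of day 30, 76 of the 257 (29.6%) and 89 of the 254 (35.0%) passed in the same direction, which is 18.8% and 21.7% of the genes passing at day 25. Across the 9497 genes, Pearson's r between the log2 fold changes of the days was 0.464, and 0.378 without KO replicate 2 of day 30. Genes are not independent replicates and share their libraries, so this is a description. Some lists turned direction, with medians at day 30 and day 25 of 0.32 and -0.71 for choroid plexus and of 0.25 and -0.18 for oxidative phosphorylation. The choroid plexus median of day 30 was itself -0.13 without OE replicate 1.

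Some genes had unlike values at the 2 days. For MXRA5 the log2 fold change was -1.33 at day 30 and -0.01 at day 25, and TPBG of -1.18 and -0.14, while RSPO2, an R-spondin, had 1.28 and 5.22. RSPO2 at day 30 had 112 and 54 in KO and 78 and 460 in OE, so OE replicate 2 alone carried the difference. POU3F3, PLAGL1 and PTPRZ1, which the study discusses, had log2 fold changes of 0.41, 0.25 and 1.02 at day 30 and of 2.18, 1.51 and 2.09 at day 25. The test of the difference between days called 0 genes at an adjusted p under 0.05 with limma, and 511 (5.38%) had an unadjusted p under 0.05, so no difference between the days was shown for any of these genes.

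**Figure D5:**
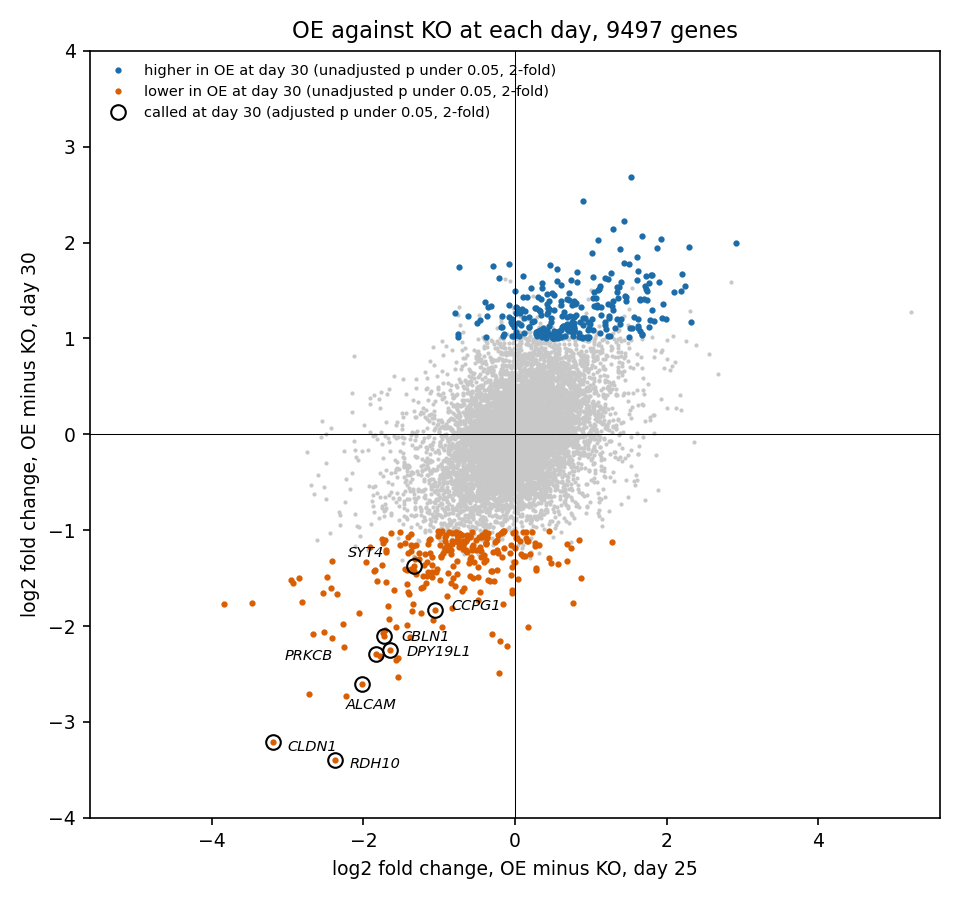
Log2 fold change of OE over KO at day 25 (x axis) and at day 30 (y axis) for 9497 genes. Blue and orange points are the 257 and 254 genes past the unadjusted threshold at day 30, and black circles mark the 8 called genes, all with both values below 0 and day 25 values between -3.19 and -1.06.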

How the data were processed

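RNA-seq tables of 12 libraries in 6 groups of 2 (WT, KO and OE labels at days 25 and 30) were used. The authors sequenced total RNA and deposited a normalized expression score per gene, rounded to whole numbers, with 9497 genes in each table. Per the labels' processing notes, bcl2fastq, Bowtie2, RSEM and hg19 were used, with no roles or versions given, and the normalization is not given in the sources used here. Gene positions in the tables overlapped RefSeq GRCh38.p14 for all 9386 symbols that matched, so coordinates are given on GRCh38. The deposited scores hold no read counts, so depth and counting error are unknown.

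Values were transformed as log2(value + 1), so fold changes of low genes are understated. A minimum value of 1 in 2 libraries removed 0 genes. limma 3.58.1 in R 4.3.3 fitted 6 group means over the 12 libraries with an intensity trend (6 residual degrees of freedom, 5.29 prior), and all p-values were adjusted over all genes with the Benjamini-Hochberg method. Called means an adjusted p under 0.05 and at least 2-fold, and the unadjusted threshold uses the p before adjustment. The script was tested on simulated data. No count test was run. Named genes were JUN, the called genes, the 12 largest log2 fold changes per direction past the unadjusted threshold without overlap, up to 3 per direction from each of 40 lists, the AP-1 list and genes the study examined. Further list members (such as GAP43, GDF7, LAMA1, LAMB2, LHX9, LMX1A, TOP2A, TTR and ZIC1) were picked with their values in view. The members and lists were chosen with earlier results of these data known, and lists were given no test. Alternatives covered the pseudocount, filter, scaling, model, weights, block and libraries left out.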

Additional observations from a re-analysis of the deposited data

How the results depend on the processing

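At day 30 the 8 called genes became 0 with the 4 compared libraries alone, 13 with a replicate block, 1 with library weights, 5 without the intensity trend and 1 with a test against a 1.5-fold change, and between 0 and 1441 with 1 library left out. The 511 genes of the unadjusted threshold became 270 with the 4 libraries alone, and between 141 and 2101 with 1 library left out. At day 25 the 26 called genes became 8 with the replicate block, 1 with library weights and 3 without the trend, and between 0 and 290 with 1 library left out. The difference between days had between 0 and 151 called genes with 1 library left out. Nothing in the labels says whether equal replicate numbers mark paired libraries. At day 30 the deviations of libraries of equal number correlated at -0.069 for KO and OE, 0.262 for WT and OE and -0.023 for WT and KO. These values cannot decide it, since KO replicate 2 stood apart from all other libraries. Pseudocounts of 0.1 and 5, quantile normalization, median centring, a filter on mean values under 50 and the 6 libraries of day 30 gave 6 to 10 calls. All 12 libraries share a minimum of 11, a median of 106 and a maximum of 9910. Median centring could therefore not change a fold change, and quantile normalization had little to change, so neither is a separate check. The fit on the 6 libraries of day 30 shared 3 of its 6 calls with the 8, ALCAM, CBLN1 and SYT4. Calls higher in OE numbered 2 with the block and 1 each with a pseudocount of 5, the mean filter and quantile normalization.

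With 1 library left out, some log2 fold changes turned direction, and the cause was not tested. Leaving out OE libraries gave -0.22 to 0.62 for JUN, -1.52 to 0.11 for MSX1, -1.43 to 0.28 for GDF7, -0.018 to 0.054 for SEMA6A and -0.19 to 0.12 for TUBB3. Leaving out KO libraries gave -1.18 to 0.17 for ATF3, -0.075 to 0.33 for MAFG, -0.42 to 0.91 for PLAGL1, -0.40 to 2.45 for PTPRZ1, -0.41 to 1.84 for SLC2A1, -1.15 to 0.19 for MSX2, -1.12 to 0.55 for PDGFRA and -0.056 to 0.85 for TERF1. PDGFRA also turned to 0.094 without OE replicate 2. Depth is unknown, and values at 11 or 9910 lie on the ends of the scale, so folds there are limited.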

Other observations

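Among the 60 genes at least 2-fold lower in every OE library than in every KO library, a pair of neighbouring genes was noticed after the values were seen, and no test was made of it. GUCY1A1 (chr4:155666726-155737059) and GUCY1B1 (chr4:155758992-155807811) encode the subunits of soluble guanylate cyclase, the receptor of nitric oxide. GUCY1A1 had 96 and 143 in KO and 38 and 35 in OE (log2 fold change -1.66), and GUCY1B1 had 192 and 176 in KO and 76 and 80 in OE (log2 fold change -1.23). At day 25 the log2 fold changes of the cyclase subunits were -0.04 and -0.29.

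Developmental regulators outside the lists above also stood apart in every pair of libraries. PAX3, a dorsal neural tube and neural crest factor, had 626 and 417 in KO and 173 and 102 in OE (log2 fold change -1.94, adjusted p = 0.0692, limma). DACH1, a nuclear factor of progenitor cells, had 145 and 139 in KO and 308 and 306 in OE (log2 fold change 1.11). ADCY2, an adenylyl cyclase, had 40 and 50 in KO and 152 and 114 in OE (log2 fold change 1.54).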
